A study of Mus musculus with 4 samples.

Results

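The genes described here are the histone cluster genes, the many near-copies that supply histone protein to newly made DNA. They were taken as the protein-coding genes of GENCODE M21 whose older symbol starts with Hist1h, Hist2h, Hist3h or Hist4h, and that averaged 1 FPKM or more in the 4 libraries. FPKM counts reads in proportion to gene length and sequencing depth. Genes can thus be set beside each other as far as their annotated lengths hold. Of 67 such genes in the annotation, 56 had a row among the 28765 genes of the table, and 18 of these reached 1 FPKM; the other 38 lay below it and 11 were not analysed here. The 18 members were 3 H1, 6 H2b, 5 H3 and 4 H4 genes, and no H2a gene.

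RNA-seq had been carried out on CD-1 mouse embryos at embryonic day 9.5 (E9.5), when the neural tube is closing, in 4 libraries, 1 of brain and 1 of spine from control embryos and the same from embryos with neural tube defects (NTD). In the NTD groups the parents, supplied at 7 to 8 weeks of age, had eaten a low-folate diet for over 8 weeks, and the mothers received methotrexate (MTX), an inhibitor of dihydrofolate reductase, as 1.5 mg/kg given intraperitoneally on E7.5. Protocol text is identical for control samples; it leaves unsaid whether their parents were given the diet or an injection, how many embryos or litters a library pools, and whether RNA was selected by its poly(A) tail. With 1 library per group there is no spread between samples, so no difference below was tested; each interval covers counting error only.

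Library totals ran from 16272101 to 16911677 reads. The tissue labels were met by marker genes: the summed level of 9 brain markers was 100.3 FPKM in control brain and 90.5 in NTD brain against 14.7 and 7.01 in the spine libraries, and that of 8 trunk Hox genes was 0.173 and 10.4 FPKM in control and NTD brain against 149.4 and 155.8 in control and NTD spine. All 8 of these Hox genes were higher in NTD brain than in control brain, so the brain libraries differed in trunk transcripts. In tissue samples of mixed cells, fewer cells of a type and less RNA per cell cannot be told apart.

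Replication-dependent histone genes are transcribed in S phase, when NPAT at histone locus bodies drives their promoters. Their messages lack introns and normally end, without a poly(A) tail, just after a short stem-loop that SLBP binds; the cut is directed by the U7 snRNP, whose Sm ring carries LSM10 and LSM11. Some of these genes can also give polyadenylated messages by reading on to a signal further downstream, and a few genes named within the clusters are expressed outside S phase. Linker histone H1 binds the nucleosome from outside, whereas H2A, H2B, H3 and H4 form its core.

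The stem-loop is typical of the class and was searched for as a 6-base inverted repeat starting with GG around a 4-base loop starting with TT. It was found in the annotated transcript of 43 of the 67 genes, 39 of the 56 with a row and 11 of the 18 members. A model that ends before the stem-loop cannot show it. Among members without one, Hist1h3h, Hist1h3i and Hist1h4k had models of 411, 411 and 312 bases. Their RefSeq genes had 488, 483 and 409. In Hist1h3g the model was the longer, at 530 bases against 492. Whether members without a stem-loop in the model lack it in the genome was not tested. The stretches below, from the GENCODE transcripts on GRCm38 and with 5 bases on either side, show 5 members that between them carry the 4 forms found among members; capitals mark the stem.
Hist1h1c: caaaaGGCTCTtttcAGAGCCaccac
Hist3h2ba: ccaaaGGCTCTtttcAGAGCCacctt
Hist1h2bk: ccaaaGGCTCTtttaAGAGCCactaa
Hist1h4d: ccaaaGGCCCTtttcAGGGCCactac
Hist1h4i: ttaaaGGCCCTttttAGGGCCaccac
The form of Hist1h1c and Hist3h2ba was the commonest, in 25 genes and 5 members. That of Hist1h4d was held by 7 genes and 2 members, all of the H4 family. Hist1h2bk, Hist1h3c and Hist1h3e shared a form with another loop. The form of Hist1h4i was found in 2 genes, Hist1h4i and Hist2h4.

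How far the annotated transcript runs on past the stem-loop varied. In Hist1h2bj, Hist1h2bk, Hist1h2bm, Hist1h3c and Hist1h4n it ended 23 to 74 bases later, whereas 330 bases followed in Hist1h4i, 169 in Hist3h2ba, 840 in Hist1h1c, 369 in Hist1h3e, 770 in Hist1h4d and 1153 in Hist1h1e. A polyadenylation signal, AATAAA or ATTAAA, lay in the last 60 bases of the transcript of 4 members: Hist1h4i, Hist1h1c, Hist2h2be and Hist3h2ba. These were the 4 members with the most reads, though not the 4 with the highest levels per length: in mean FPKM, Hist1h4k (4.68) and Hist1h3h (4.45) stood above Hist1h1c (4.21) and Hist2h2be (2.13). Summed over the libraries, Hist1h4i had 789 reads, Hist1h1c 436, Hist2h2be 370 and Hist3h2ba 300, while the other 14 members had between 36 and 130. A signal alone did not go with a high level, since 15 of the 56 genes had one and 11 of these lay under 1 FPKM; over all 15 the sum ran from 2 to 789 reads with a median of 39, beside a median of 26 over the 41 genes without one. Genes with a signal also had longer models, with a median of 912 bases against 524, and per length their median level was lower, 0.362 against 0.411 FPKM. Whether the kind of RNA selection bears on this was not tested.

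**Figure D1:**
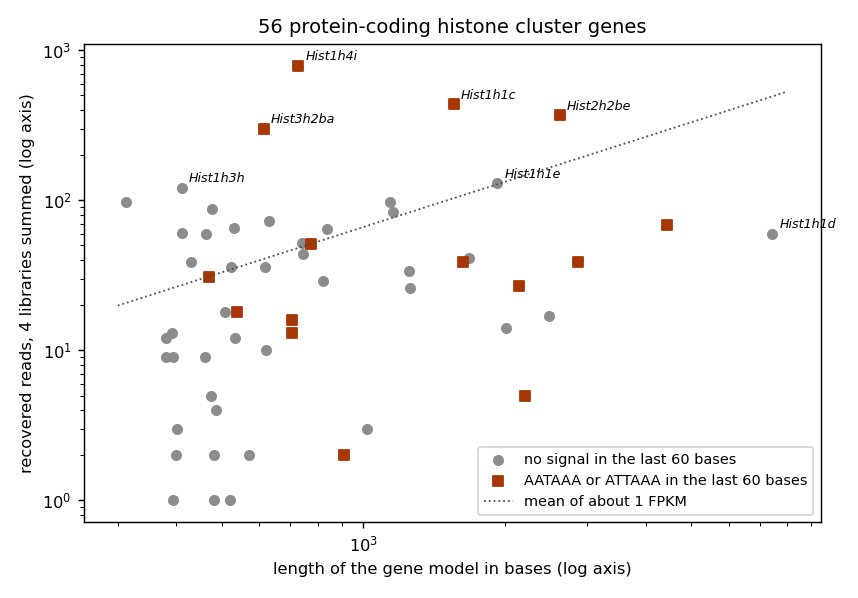
Recovered reads summed over the 4 libraries (vertical, log axis) against the length of the annotated gene model in bases (horizontal, log axis) for the 56 protein-coding histone cluster genes; squares have AATAAA or ATTAAA in the last 60 bases, and the dotted line marks a mean of about 1 FPKM. The 4 genes with the most reads (Hist1h4i, Hist1h1c, Hist2h2be, Hist3h2ba) are all squares, and 11 further squares lie lower.

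Of the 18 members, 16 lay on chromosome 13, Hist2h2be on chromosome 3 and Hist3h2ba on chromosome 11. All but Hist1h2bc had 1 exon. The transcripts were short, with a median of 622 bases against 4009 over all 12940 genes at or above 1 FPKM, and rich in G and C, with a median of 56.6% against 49.9%. Among members only Hist1h1e overlapped other genes, Hist1h2be and the unnamed Gm11398 on the same strand. Of the 56 genes with a row 14 overlapped another annotated gene, and of the 11 not analysed here 10 did. Many members also shared sequence with relatives. The part of 50-base windows found in no other transcript, on either strand, had a median of 54.6%. It ran from 6.1% in Hist1h3h to 100% in Hist2h2be and Hist1h1a. Hist1h3h and Hist1h3i shared 79.3% of their windows with each other, Hist1h4n shared 83.2% with Hist1h4m, and Hist1h4k shared 71.1% with Hist1h4a. No source used here says how the authors' counting placed reads of such stretches, so the split of reads within these pairs is uncertain.

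Promoters were read from RefSeq on GRCm38.p6 as the 150 bases before the gene's start. A single entry was found for 61 of the 67 genes and 16 of the 18 members. Hist3h2ba and Hist1h4i are shown because they are the highest H2b and H4 genes and each stood apart in 1 NTD library. Capitals mark TATAAA and CCAAT, the letters of the TATA box and of the box bound by NF-Y, on either strand. Neither motif contains the other. They are marked and counted wherever they fall in the 150 bases, so a match need not be a working box. Only exact copies of these letters were searched for, so a variant of either box is left unmarked and can be missed. In Hist1h4i the only exact match lies at the end of the window far from the gene's start.
Hist3h2ba, chr11:58948761-58948910, plus strand: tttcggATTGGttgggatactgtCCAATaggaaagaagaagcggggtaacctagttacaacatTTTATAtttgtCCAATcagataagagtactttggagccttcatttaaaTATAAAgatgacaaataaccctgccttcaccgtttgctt
Hist1h4i, chr13:22041363-22041512, minus strand: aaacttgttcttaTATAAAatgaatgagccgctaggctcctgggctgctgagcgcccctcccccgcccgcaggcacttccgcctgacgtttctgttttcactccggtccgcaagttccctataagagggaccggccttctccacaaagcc
Over the same window TATAAA occurred in 9 of the 16 member promoters, 24 of the 61 histone promoters and 7.6% of 32851 promoters. CCAAT occurred in 13 of 16, 50 of 61 and 24.5%. ATTTGCAT, the octamer bound by OCT1 at H2b genes, occurred in 2 of 16, 10 of 61 and 1.0%.

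The members had low FPKM, and a single H4 gene led them. Over all 18 members the summed level was 57.4 FPKM in control brain and 66.7 in NTD brain, and 59.6 and 47.8 FPKM in control and NTD spine. Outside the clusters, 11 replication-independent and variant histone genes summed to 1708, 1685, 1598 and 1542 FPKM in the same order. Most of those genes give chiefly polyadenylated messages. The part of RNA selection and of the counting of near-copies in these levels was not tested. The highest of those was H2afz, which encodes the variant H2A.Z, with 604.9, 639.2, 554.0 and 567.2 FPKM. H3f3a and H3f3b, which encode H3.3, had means of 225.4 and 300.7 FPKM.

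**Figure D2:**
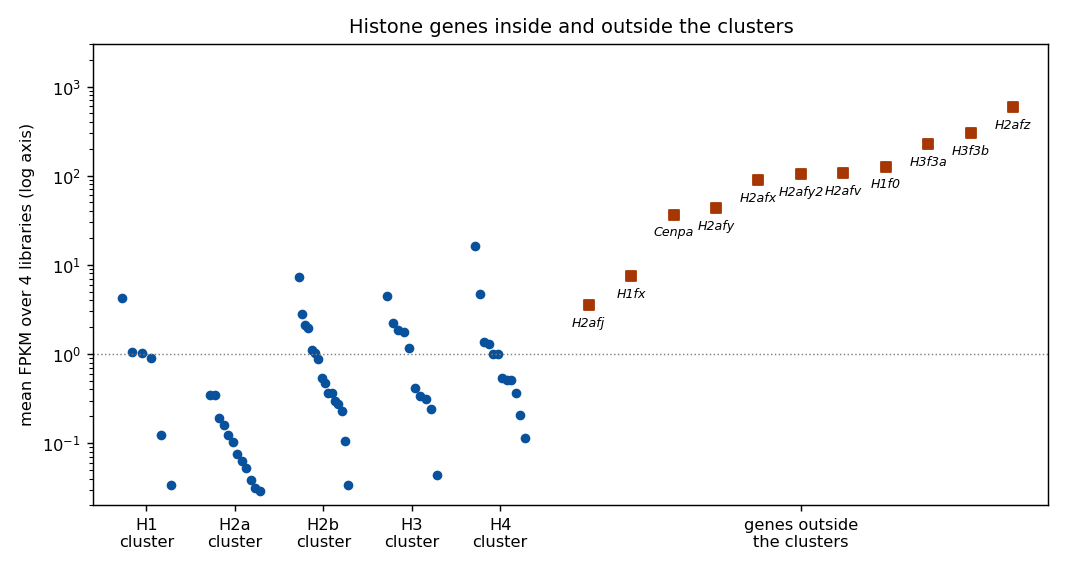
Mean FPKM over the 4 libraries (vertical, log axis) for the 56 histone cluster genes by family, each point a gene in falling order, and for 11 histone genes outside the clusters (squares). Points above the dotted line at 1 FPKM are the 18 members; no H2a cluster gene reaches it, and every square lies above it.

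Among linker histones, Hist1h1c had 4.62 and 4.71 FPKM in control and NTD brain, and 3.78 and 3.74 in control and NTD spine. It differed little between the libraries. Hist1h1a had 1.44, 1.31, 0.663 and 0.813 FPKM in that order, which is kept below. On 18, 16, 8 and 10 reads it was higher in both brain libraries than in both spine libraries. Hist1h1e, with 1.53, 0.818, 0.828 and 0.874 FPKM, was high in control brain alone and had the lowest mean of any member, 1.01 FPKM. Hist1h1d, with 13, 17, 14 and 16 reads over an annotated transcript of 7425 bases, had a mean of 0.122 FPKM and was no member.

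No H2a gene reached the threshold, and the H2a genes also differed from the other families in the annotation. Each of the 18 overlapped another annotated gene, against 1 of 6 H1, 2 of 18 H2b, 2 of 12 H3 and 1 of 13 H4 genes. In 17 of the 18 it was a miRNA model on the opposite strand, which covered from 5.6% to 35.9% of the gene's length. Over the H2a genes with a row, a median of 27.0% of the 50-base windows were found in no other transcript. For H1, H2b, H3 and H4 genes that median was 98.8%, 52.5%, 42.8% and 65.8%. Both strands were searched, so windows that lie inside those miRNA models also count as shared. Whether reads in these stretches were left uncounted was not tested, and uncounted reads and low expression cannot be told apart here. Of 18 annotated H2a genes 12 had a row, with a median mean of 0.0891 FPKM and a highest mean of 0.346, in Hist1h2ai. Together they held 24, 26, 17 and 20 reads. The H2b genes, whose proteins pair with H2A in the nucleosome, had 334, 296, 312 and 221 reads over 16 genes, of which 1 overlapped another gene.

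Hist3h2ba led the H2b genes, with 9.82 and 8.80 FPKM in control and NTD brain, and 8.41 and 2.45 in control and NTD spine. The NTD spine library was low and the other 3 lay close together. Hist1h2bk followed with 1.86, 2.42, 3.87 and 3.04 FPKM, higher in both spine libraries but on only 15, 19, 30 and 24 reads. Hist2h2be had 2.91, 1.92, 2.30 and 1.38 FPKM. This gene is known as the H2B variant H2BE of olfactory neurons, and it was lower in the NTD library of both tissues. Hist1h2bj had 0.639, 3.15, 2.12 and 1.95 FPKM and was low in control brain, whereas Hist1h2bm had 1.81, 0.464, 1.52 and 0.345 FPKM and was low in both NTD libraries. Hist1h2bc, with 0.921, 0.735, 1.06 and 1.67 FPKM, was highest in NTD spine.

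Among H3 genes Hist1h3h was the highest, with 4.32, 3.84, 5.08 and 4.54 FPKM; its 4 libraries lay close together. Its near-copy Hist1h3i had 0.863, 2.66, 3.14 and 2.34 FPKM, with control brain low. Hist1h3g had 1.56, 2.41, 1.86 and 1.59 FPKM. Hist1h3c, at 1.22, 1.25, 2.63 and 1.91 FPKM, and Hist1h3e, at 0.707, 1.09, 1.54 and 1.30 FPKM, were both higher in the spine libraries than in the brain libraries. They rested on 13, 13, 27 and 20 reads and on 10, 15, 21 and 18 reads. Between control tissues the interval of Hist1h3e (2.18-fold lower in brain, 0.984 to 5.19) includes equality.

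Hist1h4i was the highest member in every library, with 13.4 and 24.7 FPKM in control and NTD brain, and 14.1 and 13.3 in control and NTD spine. It is a gene of 727 bases at chr13:22040636-22041362 on the minus strand; Hist3h2ba is a gene of 614 bases at chr11:58948920-58949533 on the plus strand. NTD brain was the high library for Hist1h4i, and the other 3 lay close together. Hist1h4k had 6.82, 3.70, 4.33 and 3.86 FPKM and was high in control brain. Hist1h4n had 2.06, 1.41, 0.858 and 1.12 FPKM, and Hist1h4d 0.883, 1.28, 1.51 and 1.53. Just inside the threshold were Hist1h1e at 1.01 and Hist1h2bm at 1.03 FPKM, and just outside it Hist1h4h at 0.997 and Hist1h4j at 0.992; in 9 members at least 1 library lay under 1 FPKM.

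**Figure D3:**
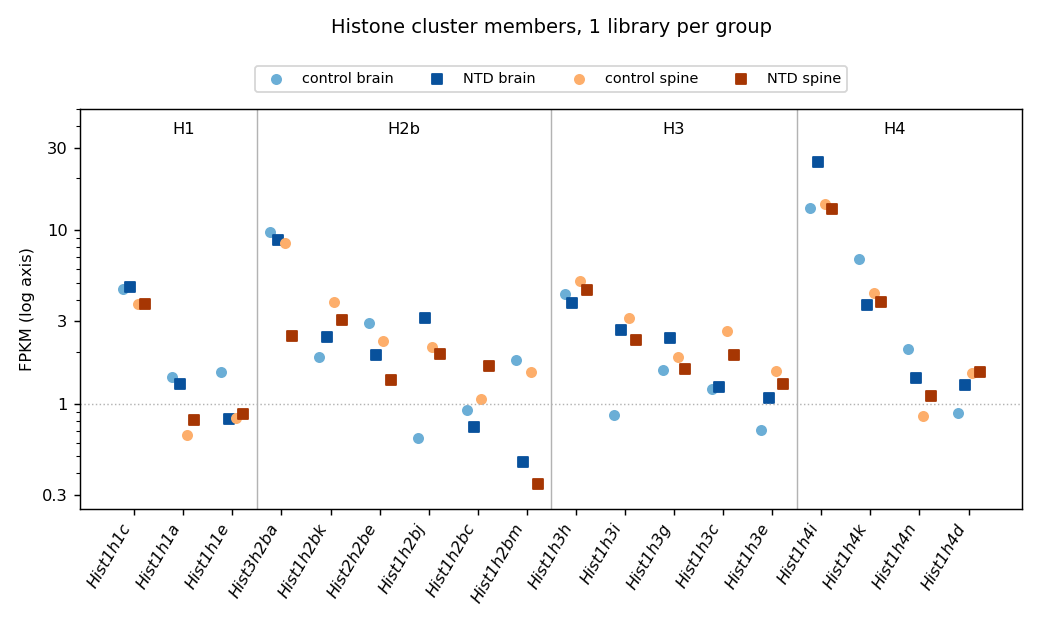
FPKM of the 18 members (vertical, log axis) in the 4 libraries, by family; circles are control and squares NTD libraries, blue brain and orange spine, with 1 library per group and no error bar. Hist1h4i stands highest with NTD brain above the other libraries, and the NTD spine point of Hist3h2ba lies below its other 3 points.

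NTD brain was first set against control brain. The differences between them went both ways, with 9 members higher and 9 lower in NTD brain. The median log2 ratio of (FPKM + 1) was -0.03 over the members and -0.03 over all genes. Past 2-fold on that scale lay 1 member higher and none lower, where 0.804% of all 12940 genes were 2-fold higher and 0.781% 2-fold lower. Each fold below divides the reads recovered for a gene, per library total, and carries its exact (Clopper-Pearson) 95% counting interval.

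Hist1h4i was 1.84-fold higher in NTD brain (interval 1.52 to 2.24), on 296 reads against 165. The 2-fold member was Hist1h2bj, with 24 reads in NTD brain against 5 in control brain, 4.93-fold higher (1.84 to 16.5) and a log2 ratio of 1.34. Hist1h3i had 18 reads against 6, 3.08-fold higher (1.17 to 9.48). The fold of these 2 low-read genes is known far less closely than that of Hist1h4i, and both share much of their sequence with relatives, 12.4% of the windows of Hist1h3i and 40.6% of those of Hist1h2bj being found in no other transcript.

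Lower in NTD brain were Hist1h2bm, by 3.90-fold (1.26 to 16.0) on 4 reads against 16, and Hist1h4k, by 1.85-fold (1.03 to 3.41) on 19 against 36. Hist1h1e was 1.87-fold lower (1.14 to 3.13) on 26 reads against 50. Hist2h2be was 1.51-fold lower (1.14 to 2.02) on 83 against 129. The other 11 members had intervals that include equality; they include Hist1h1c, at 121 reads against 122 (1.02-fold higher, 0.785 to 1.32), and Hist3h2ba, at 89 against 102 (1.12-fold lower, 0.832 to 1.50). In all 3 of 18 members had an interval above equality and 4 below it, beside 16.1% and 25.7% of the 12721 genes with an interval. Members had a median of 34.5 reads over both libraries, against 1078 over all genes. Their intervals are therefore wider, and these shares cannot be compared directly.

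By family, the 4 H4 members together were 1.54-fold higher in NTD brain (1.30 to 1.82), on 349 reads against 233. Without Hist1h4i the direction turned, and the other 3 H4 members were 1.25-fold lower (0.860 to 1.82) on 53 against 68. The H3 members were 1.31-fold higher (0.953 to 1.80), the H2b members 1.19-fold lower (0.998 to 1.42) and the H1 members 1.14-fold lower (0.916 to 1.41). Over all 18 members the sum was 1.10-fold higher (0.998 to 1.22), on 838 reads against 781, and without Hist1h4i and Hist3h2ba it was 1.11-fold lower (0.972 to 1.26). The 38 genes under 1 FPKM held 202 reads in NTD brain against 167 in control brain, 1.24-fold higher (1.01 to 1.53).

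In NTD spine 13 of 18 members were lower than in control spine, beside 58.0% of all genes. Their median log2 ratio was -0.13, and that of all genes -0.04. This direction turned with an adjustment for GC content and length: with each gene set against the median of protein-coding genes in its own of 100 cells of like GC content and length, 6 members were lower and 12 higher, with a median of 0.10. Hist3h2ba, Hist2h2be and Hist1h2bm stayed lower under it, at -1.32, -0.49 and -0.79. Past 2-fold lay 0 members higher and 1 lower, beside 0.649% and 0.68% of all genes. That member was Hist3h2ba, with 25 reads in NTD spine and 84 in control spine, 3.43-fold lower (2.17 to 5.59) and a log2 ratio of -1.45. Of its 50-base windows 77.9% were found in no other transcript, and the other 22.1% were shared with the pseudogene Hist3h2bb-ps, which had 0 reads in NTD spine and 1 in control spine.

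Hist2h2be was 1.67-fold lower in NTD spine (1.20 to 2.34), on 60 reads against 98. Hist1h2bm was 4.42-fold lower (1.22 to 24.2) on 3 reads against 13. All 3 members with an interval below equality were thus H2b genes, and none had one above it, beside 26.6% and 17.2% of genes with an interval. Those shares rest on deeper counts, with a median of 1070 reads over both spine libraries against 49.5 for the members. Hist1h4i, the highest member, had 161 reads against 167 (1.06-fold lower, 0.847 to 1.32), and Hist1h1c 97 against 96. The highest log2 ratio was 0.37, for Hist1h2bc, at 32 reads against 20 (1.57-fold higher, 0.870 to 2.89), followed by 0.19 for Hist1h4n and 0.12 for Hist1h1a, whose intervals also include equality.

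Summed, the 6 H2b members were 1.68-fold lower in NTD spine (1.37 to 2.05), on 159 reads against 261, and 1.35-fold lower (1.07 to 1.70) without Hist3h2ba. The H3 members were 1.23-fold lower (0.932 to 1.62) on 99 against 119. The H4 members were 1.04-fold lower (0.862 to 1.26), and the H1 members 1.02-fold higher (0.794 to 1.30). Over all 18 members the sum was 1.22-fold lower (1.10 to 1.37), on 611 reads against 733, and 1.16-fold lower (1.01 to 1.32) without Hist1h4i and Hist3h2ba. These sums were not adjusted for GC content and length. Genes like the members in both had a median log2 ratio of (FPKM + 1) of -0.17 in this comparison.

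**Figure D4:**
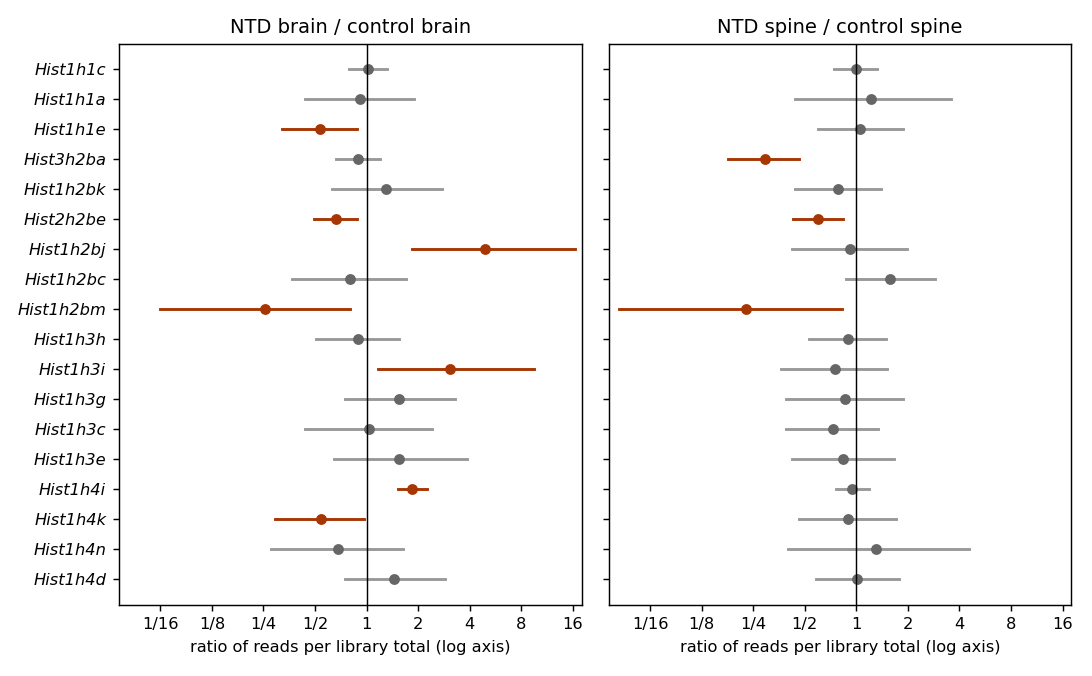
Ratio of NTD to control in reads per library total (horizontal, log axis) for the 18 members, brain left and spine right; bars are exact 95% counting intervals, and red marks those that exclude a ratio of 1. In brain 3 red bars lie above 1 and 4 below; in spine 3 lie below 1 (Hist3h2ba, Hist2h2be, Hist1h2bm) and none above.

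The NTD comparisons of brain and spine use no library in common. Of the 18 members 1 was higher in NTD in both tissues (Hist1h4d), 5 were lower in both (Hist3h2ba, Hist2h2be, Hist1h2bm, Hist1h3h and Hist1h4k) and 12 had opposite directions. The direction was the same for 33.3% of the members and for 67.9% of all genes. The members rested on far fewer reads, with a median of 34.5 in both brain libraries together and 49.5 in both spine libraries, against 1078 and 1070 over all genes. Hist2h2be and Hist1h2bm were the 2 members whose interval lay below equality in both tissues. The share of all genes below equality in both was not computed. In brain and spine taken singly, 25.7% and 26.6% of genes with an interval lay below it.

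Markers of other cells also differed between the libraries compared. Of 10 early neuron markers all were lower in NTD brain and in NTD spine, with summed levels of 197.7 and 134.8 FPKM in control and NTD brain, and 117.9 and 66.2 in control and NTD spine. The same held for 6 of 6 neural progenitor markers, which summed to 216.4, 180.1, 135.0 and 114.2 FPKM. The sum of 7 heart markers was 47.2 FPKM in control brain and 196.1 in NTD brain, and 691.4 and 463.3 in control and NTD spine. The sum of the primitive erythroid markers was 4500, 4838, 7016 and 3662 FPKM, and all 9 that were compared were lower in NTD spine. Yolk sac and gut markers summed to 0.202, 0.269, 116.9 and 35.4 FPKM; Apoa2 was listed at 0 in both brain libraries. Endothelial markers summed to 46.8, 45.7, 57.6 and 61.6 FPKM. The part of these cells in the histone values was not tested.

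Control brain and control spine, which also serve as the references above, gave the tissue comparison. The 5 H3 members together had 73 reads in control brain and 119 in control spine, 1.69-fold lower in brain (1.26 to 2.30). All 5 were lower in control brain, and the intervals of 2, Hist1h3i and Hist1h3c, exclude equality. In the NTD libraries, of nearly equal totals, the same genes had 93 reads in brain and 99 in spine. The H1 members went the other way, at 190 reads against 130 (1.41-fold higher in brain, 1.12 to 1.77). The H2b members (1.05-fold higher, 0.885 to 1.25) and the H4 members (1.01-fold higher, 0.833 to 1.21) had intervals that include equality.

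Past 2-fold lay 0 members higher in control brain and 1 lower, beside 0.981% and 2.38% of all genes. It was Hist1h3i, with 6 reads in control brain and 21 in control spine, 3.64-fold lower (1.42 to 11.0). Hist1h2bj (3.33-fold lower, 1.16 to 11.6), Hist1h3c (2.16-fold lower, 1.08 to 4.56) and Hist1h2bk (2.08-fold lower, 1.08 to 4.16) also had intervals below equality. Hist1h1e had the only interval above it, at 1.85-fold higher (1.13 to 3.10). That makes 1 of 18 above and 4 of 18 below, beside 20.0% and 19.2% of the 12721 genes with an interval. Again the members had far fewer reads, with a median of 42.5 over both control libraries against 1092. The highest log2 ratios were 0.72 for Hist1h4n and 0.55 for both Hist1h4k and Hist1h1a, each with an interval that includes equality. The members' median was -0.09 and that of all genes 0.01.

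Of 33 genes that transcribe or mature histone messages 32 reached 1 FPKM, and none of these was past 2-fold in either NTD comparison. Few genes were: 0.804% of all genes were 2-fold higher and 0.781% 2-fold lower in NTD brain, and 0.649% and 0.68% in NTD spine. In brain, where 43.6% of all genes were higher in NTD, 14 were higher and 18 lower, with a median log2 ratio of -0.03; in spine, where 41.9% of all genes were higher, 18 were higher and 14 lower, with a median of 0.08. Zfp473, a zinc-finger protein of the U7 particle, was the one under 1 FPKM, with a mean of 0.703; it was 1.25-fold lower in NTD brain (0.963 to 1.63) and 1.09-fold higher in NTD spine (0.833 to 1.43).

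Slbp, the stem-loop binding protein, had 24.0 and 23.8 FPKM in control and NTD brain, and 21.1 and 22.4 in control and NTD spine. Its values in NTD and control libraries lay close together, 1.01-fold lower in brain (0.953 to 1.07) and 1.06-fold higher in spine (0.9995 to 1.13). Npat had 6.22, 6.07, 7.08 and 6.45 FPKM, and Casp8ap2, its partner in histone locus bodies, 10.9, 11.1, 10.3 and 11.3 FPKM. Of the U7-specific subunits, Lsm11 was 1.24-fold (1.09 to 1.40) and 1.33-fold (1.16 to 1.53) lower in NTD brain and spine. Lsm10 was 1.36-fold lower in brain (1.11 to 1.67) and 1.16-fold lower in spine, where the interval (0.943 to 1.44) includes equality. Nelfe, a subunit of the negative elongation factor, was 1.26-fold (1.15 to 1.38) and 1.31-fold (1.19 to 1.45) lower. The lowest in spine was Mblac1, a nuclease that acts on histone pre-mRNA, at 1.66-fold lower (1.18 to 2.36).

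Highest of the list in NTD brain were Cstf2 (1.18-fold higher, 1.11 to 1.25) and Cstf3 (1.16-fold, 1.09 to 1.25), subunits of the cleavage stimulation factor. In NTD spine they were Ccne2, an S phase cyclin, at 1.34-fold higher (1.21 to 1.49) and Cstf3 at 1.22-fold (1.13 to 1.31).

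Of the 11 histone genes outside the clusters 8 were lower in NTD in each tissue, beside 56.4% of all genes in brain and 58.0% in spine, with median log2 ratios of -0.23 in brain and -0.13 in spine. The 3 most abundant lay close to equality: H2afz was 1.06-fold higher in brain (1.04 to 1.08) and 1.02-fold in spine (1.002 to 1.05), H3f3a 1.06-fold (1.04 to 1.09) and 1.02-fold (0.995 to 1.05) higher, and H3f3b 1.04-fold higher in brain (1.02 to 1.06) and 1.004-fold lower in spine (0.981 to 1.03). H1f0, a linker histone of differentiating cells, had 142.3, 118.4, 138.1 and 105.2 FPKM and was 1.20-fold (1.15 to 1.25) and 1.31-fold (1.26 to 1.37) lower in NTD. H2afx, which marks DNA breaks once phosphorylated, was 1.23-fold (1.15 to 1.31) and 1.16-fold (1.09 to 1.23) lower. H2afv, a second H2A.Z gene, was 1.22-fold lower in NTD brain (1.16 to 1.28), and H2afj 1.67-fold lower in NTD spine (1.25 to 2.25).

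Of 24 histone chaperones, which carry histones to DNA, 11 were higher and 13 lower in NTD brain, where 43.6% of all genes were higher. In NTD spine, where 41.9% of all genes were higher, 18 were higher and 6 lower. No chaperone was past 2-fold in either comparison, beside 0.804% of all genes higher and 0.781% lower in brain, and 0.649% and 0.68% in spine. Npm1, a nucleolar chaperone, had 788.4, 1091, 711.4 and 877.7 FPKM and was the highest in both tissues, at 1.38-fold (1.37 to 1.40) and 1.23-fold (1.22 to 1.25). Hat1, which acetylates new H4, was 1.23-fold (1.17 to 1.29) and 1.19-fold (1.13 to 1.26) higher. The lowest were Ubn1 (1.23-fold lower, 1.15 to 1.32) and Daxx (1.17-fold lower, 1.08 to 1.28) in brain, both of which place H3.3, and Ipo4 (1.15-fold lower, 1.05 to 1.27) and Hira (1.18-fold lower, 1.02 to 1.36) in spine.

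Of 30 genes of S phase, the phase in which cluster histones are made, 20 were higher in NTD brain, beside 43.6% of all genes, with a median log2 ratio of 0.04. The interval excluded equality for 9 of the higher and 5 of the lower genes, beside 16.1% and 25.7% of all genes with an interval. In NTD spine 23 of 30 were higher, beside 41.9% of all genes, with a median of 0.10. There the interval excluded equality for 16 higher and 2 lower genes, beside 17.2% and 26.6% of all genes with an interval. The extremes in brain were Fen1 (1.33-fold higher, 0.9496 to 1.87), Rrm1 (1.18-fold higher, 1.14 to 1.22), Ung (1.14-fold lower, 1.05 to 1.25) and Tk1 (1.14-fold lower, 1.05 to 1.23). In spine they were Mcm4 (1.32-fold higher, 1.27 to 1.37), Pcna (1.23-fold higher, 1.19 to 1.28), Tk1 (1.11-fold lower, 1.02 to 1.20) and Cdt1 (1.09-fold lower, 1.02 to 1.16). Of 20 mitosis genes 13 were higher in NTD brain and 11 in NTD spine, beside 43.6% and 41.9% of all genes, with medians of 0.02 and 0.04. Bub1, a spindle checkpoint kinase, was the highest in both, at 1.23-fold (1.17 to 1.29) and 1.31-fold (1.25 to 1.39), and Kif20a, a kinesin of cytokinesis, was next. The lowest were Birc5 (1.19-fold lower, 1.13 to 1.26) and Cdc20 (1.16-fold lower, 1.12 to 1.21) in brain, and Ube2c (1.17-fold lower, 1.12 to 1.23) and Ccnb2 (1.12-fold lower, 1.05 to 1.20) in spine. No S phase or mitosis gene was past 2-fold. Over all genes 0.804% were 2-fold higher and 0.781% 2-fold lower in NTD brain, and 0.649% and 0.68% in NTD spine. The members ranged from -0.94 to 1.34 in brain and from -1.45 to 0.37 in spine on the log2 scale, on far fewer reads.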

How the data were processed

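The authors deposited 1 table of FPKM (reads scaled to gene length and library size) for 28765 genes in 4 libraries. Alignment used HISAT2 2.0.1 and the build mm10, per the submitters' processing notes; counting program, annotation and strand setting were not given in the sources used here. Identifiers were matched to GENCODE M21 on GRCm38 (28698 matched, 67 did not) for symbols and exon lengths. FPKM times exon length stepped in whole reads, within 0.01 reads, for 28298 genes (98.6%) and all 18 members; 1 FPKM in a gene of 1 kb then stood for 16.3 to 16.9 reads.

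Log2 ratios used a pseudocount of 1 over the 12940 genes averaging 1 FPKM or more, so they understate the change of low genes. Folds divide recovered reads, each taken per library total, with exact conditional binomial (Clopper-Pearson) 95% intervals, which cover counting error only. The interval and ratio code was tested on simulated data. The members and lists were chosen with earlier results of these data known. The text names the 3 highest members of each family, the 3 highest and lowest log2 ratios of each comparison, members near the threshold or sharing sequence, and the 2 highest and lowest genes of each list. Alternatives changed the pseudocount, filter, scaling, threshold, GC and length adjustment and sequence uniqueness. Calculations used Python 3.11.15, pandas 2.3.3 and scipy 1.17.1.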

Additional observations from a re-analysis of the deposited data

Results flagged for a closer look

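Among histone pseudogenes, which no comparison above uses, the processed pseudogene Hist1h2al had 4 and 5 reads in control and NTD brain, and 1 and 2 in control and NTD spine. It is given because 5 reads in NTD brain is above the level of 3 reads that a count of 0 allows, and above the 4 reads of the control brain library; with counts this small no difference between the libraries was detectable.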

How the results depend on the processing

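On the count of members past 2-fold, which was 1 in each comparison, a pseudocount of 0.1 gave 3 in brain, 2 in spine and 7 between control tissues, and a pseudocount of 5 gave 0 in all 3. A threshold of 1.5-fold gave 5, 2 and 5. A filter at 5 FPKM, which leaves 2 members, gave 0 in brain and 0 between control tissues, and the adjustment for GC content and length gave 2 in brain. Counting members whose interval excludes equality, a choice made after seeing the data, gave 7, 3 and 5. Without Hist1h4i, also chosen after seeing the data, the NTD to control ratio of H4 reads in brain turned from 1.54 to 0.800; without Hist3h2ba that of H2b reads in spine moved from 0.597 to 0.742, and without both that of all members in brain moved from 1.10 to 0.905. The members' median log2 ratio ran from -0.08 to 0.35 in brain, -0.76 to 0.10 in spine and -0.13 to 0.25 between control tissues, and its sign changed in brain without a filter (0.03), with 5 FPKM (0.35) and with the GC and length adjustment (0.03), in spine with that adjustment (0.10), and between control tissues with 5 FPKM (0.07) and with the 3 members of at least 90% unique windows (0.25). Of 330 values of single members under these alternatives, 7 lay outside the member's counting interval, all with a pseudocount of 5. A filter cannot move a single gene's ratio, so the 54 values without a filter and the 6 at 5 FPKM equal the main ones. Each kind of rescaling gave 54 values and shifted all genes together, by at most 0.056 in log2. The members' intervals are wider than that. The count therefore bears mainly on the pseudocounts and on the GC and length adjustment. In spine the GC and length adjustment changed the number of lower members from 13 to 6. No paired analysis was possible because each group holds 1 library and the groups share only the replicate number 1, and no library could be left out. The depth limits the members: a member with 3 to 30 reads per library has an interval spanning several-fold.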
